A study of Mus musculus with 10 samples.

Results

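The genes described are 10 germline genes of the mouse, Dazl, Sycp1, Sycp3, Mael, Asz1, Tex19.1, Tex101, Slc25a31, Hormad1 and Stk31. They were chosen by name, as genes that somatic tissues are known to keep silent through methylation of their promoters, and were found by Ensembl gene ID in tables of 55487 genes. All 10 are present as protein-coding genes. The cells were E14, an established mouse embryonic stem cell line, with no genetic change or treatment named in the labels. They were grown in 15% serum with LIF, a GSK inhibitor at 3 µM and a MEK1/2 inhibitor at 1 µM. RNA was sequenced in 3 replicates after depletion of ribosomal RNA. The series also holds 7 R-loop samples made by MapR or BisMapR, which were not analysed here. With 1 RNA group there is no condition to compare, so the comparisons are between genes and between replicates. DNA methylation of these promoters was not measured.

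In mammals, germ cells carry out meiosis and silence transposons with proteins that other cells do not need. The promoters of many such genes are rich in CpG dinucleotides, gain methylation when the embryo implants, and lose it again in primordial germ cells. In embryonic stem cells they are also repressed by PRC1.6, a Polycomb complex that reaches DNA through MGA with MAX at E-boxes and through E2F6 with a DP partner at E2F motifs. Stem cells grown with GSK and MEK inhibitors are known for low methylation across the genome.

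Transcripts of some of these genes were present, so not every gene of the group was silent in this culture. A mean of at least 1 TPM, a relative transcript abundance corrected for transcript length, was reached by 6 of the 10 genes: Dazl, Tex19.1, Hormad1, Stk31, Sycp3 and Mael. Slc25a31, Asz1, Sycp1 and Tex101 lay below it, at means of 0.50, 0.40, 0.16 and 0.10 TPM. The same limit was reached by 44.1% of protein-coding genes and by 19.8% of all genes. Of the 10 genes, 9 had more than 3 estimated counts in every replicate, against 56.1% of protein-coding genes and 26.3% of all genes. The remaining gene, Tex101, was at or below that floor in all 3 replicates, as were 36.7% of protein-coding genes and 67.4% of all genes. The median over the 10 genes was 1.64 ± 0.25 (SD, n = 3) in log2(TPM + 1), beside 0.53 ± 0.11 (SD, n = 3) for protein-coding genes. The list was chosen with results of these libraries known, so these shares describe it and are not a test. In RNA from bulk cells, few cells with many transcripts and many cells with few cannot be told apart.

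The promoter of each gene was read from RefSeq on GRCm38.p6, from 250 bases before to 50 after the transcription start. All 10 genes had an entry. The 250 bases before the start are shown for 5 genes, because these 5 cover the range of levels and the combinations of motifs. Capitals mark the E-box CACGTG, which reads the same on both strands, and the E2F letters TCCCGC, which read GCGGGA on the other strand. No E-box overlapped an E2F match. Dazl was the highest gene and has neither motif, Tex19.1 has E2F letters alone, Hormad1 and Sycp3 have both, and Sycp1 is a gene of very low level with an E-box in the stretch shown and E2F letters after the start.
Dazl, chr17:50293621-50293870, minus strand: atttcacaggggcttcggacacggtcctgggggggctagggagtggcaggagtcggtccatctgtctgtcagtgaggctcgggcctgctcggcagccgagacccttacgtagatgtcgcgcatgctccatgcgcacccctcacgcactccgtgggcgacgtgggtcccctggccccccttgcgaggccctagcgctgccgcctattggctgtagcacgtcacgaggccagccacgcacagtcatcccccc
Tex19.1, chr11:121145893-121146142, plus strand: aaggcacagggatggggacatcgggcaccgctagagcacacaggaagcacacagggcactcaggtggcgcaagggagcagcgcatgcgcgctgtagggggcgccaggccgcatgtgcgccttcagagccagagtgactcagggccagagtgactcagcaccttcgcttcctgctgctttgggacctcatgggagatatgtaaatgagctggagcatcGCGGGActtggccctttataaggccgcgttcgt
Hormad1, chr3:95559427-95559676, plus strand: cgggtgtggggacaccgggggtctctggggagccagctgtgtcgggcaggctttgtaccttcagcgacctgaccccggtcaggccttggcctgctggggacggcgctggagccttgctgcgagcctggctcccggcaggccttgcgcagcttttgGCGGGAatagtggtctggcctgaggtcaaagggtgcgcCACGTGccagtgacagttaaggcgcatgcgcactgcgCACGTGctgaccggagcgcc
Sycp3, chr10:88459337-88459586, plus strand: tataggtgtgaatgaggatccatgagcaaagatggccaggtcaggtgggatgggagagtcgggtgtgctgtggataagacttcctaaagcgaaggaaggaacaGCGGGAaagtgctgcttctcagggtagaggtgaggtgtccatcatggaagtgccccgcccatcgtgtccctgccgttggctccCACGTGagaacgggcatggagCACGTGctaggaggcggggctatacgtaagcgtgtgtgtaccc
Sycp1, chr3:102936101-102936350, minus strand: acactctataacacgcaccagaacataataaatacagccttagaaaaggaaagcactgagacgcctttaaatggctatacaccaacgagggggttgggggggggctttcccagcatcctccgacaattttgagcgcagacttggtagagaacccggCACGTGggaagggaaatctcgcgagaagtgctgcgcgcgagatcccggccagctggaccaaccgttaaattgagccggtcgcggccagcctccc

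The number of CpG dinucleotides in the 300 bases ran from 15 for Sycp3 to 29 for Stk31, with a median of 21.5. The median over 17491 protein-coding promoters was 13.0. Dazl had 28, Hormad1 and Mael 24 each, Slc25a31 22, Sycp1 21, Tex101 19, Asz1 17 and Tex19.1 16. All 10 were therefore above the median promoter in CpG number. By the ratio of observed to expected CpG, which corrects for base composition, the 10 ran from 0.575 for Tex19.1 to 0.908 for Stk31. Tex19.1 lay at the middle of protein-coding promoters by this measure, with 49.9% of them lower, and Stk31 had 83.7% lower.

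An E-box occurred in 6 of the 10 promoters, those of Sycp1, Sycp3, Mael, Slc25a31, Hormad1 and Stk31. Sycp3 and Hormad1 had 2 each. The share was 7.90% among protein-coding promoters and 7.24% among all 27025 promoters. E2F letters occurred in 6 of the 10, against 25.7% of protein-coding promoters. Both motifs were present in 5 of the 10, Sycp1, Sycp3, Mael, Slc25a31 and Hormad1, against 2.74% of protein-coding promoters. Both motifs contain a CpG, so the shares were also taken among the 8286 protein-coding promoters with at least 15 CpG. There an E-box was found in 11.6%, E2F letters in 45.3% and both in 5.20%. Dazl, Asz1 and Tex101 had neither. These are matches of letters in a fixed window and not measured binding sites.

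Motif distances were taken from the RefSeq start, and none over other promoters are given here. Except in Mael, the E-boxes began within 94 bases of that start. In Hormad1 the E-boxes began 57 and 20 bases before the start and the E2F letters 95 bases before it. In Sycp3 the E-boxes began 64 and 43 bases before the start, and in Stk31 the single one began 55 bases before it. The GENCODE start of Stk31 lies 65 bases downstream of the RefSeq start, so its E-box is farther from that start. Sycp1 and Slc25a31 had their E-boxes 94 and 93 bases before the start, and Mael was the exception at 223. E2F letters began 147 bases before the start in Sycp3, 143 in Mael and 33 in Tex19.1. The E2F letters of Sycp1 and Slc25a31 lay after the start, so in the part before the start E2F letters were found in 4 of the 10 genes. In the same 250 bases they were found in 21.6% of protein-coding promoters and in 39.6% of those with at least 12 CpG there, a share like that of the 10 genes.

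**Figure D1:**
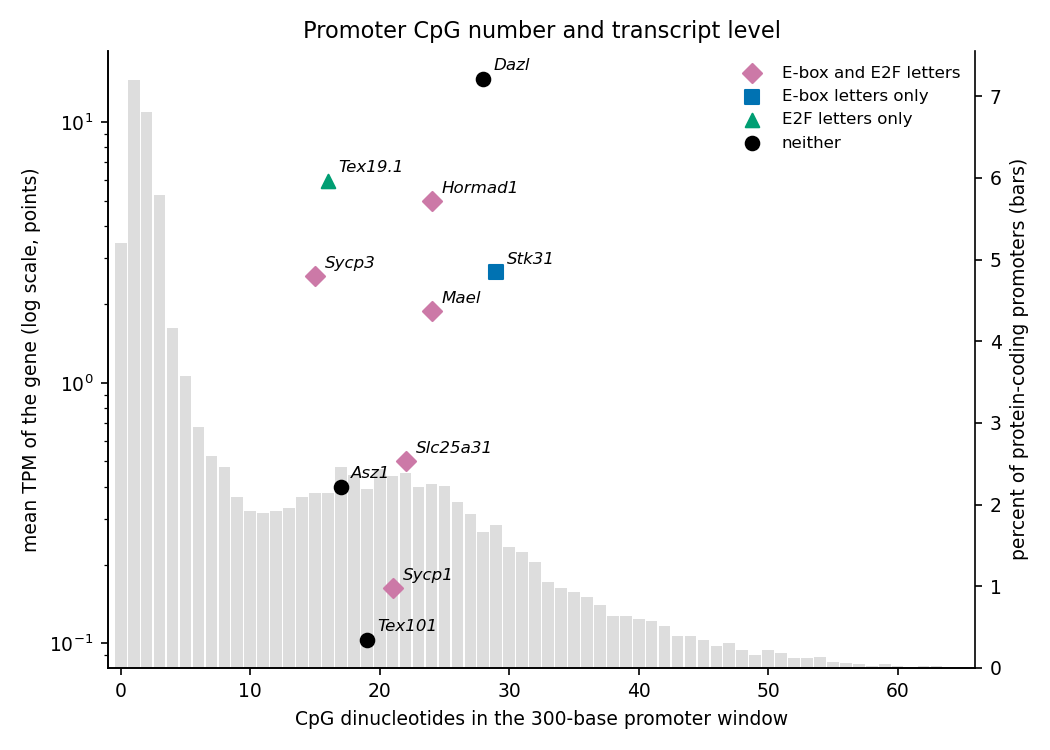
Points show mean TPM over 3 replicates (left axis, log scale) against the number of CpG dinucleotides in the promoter window for the 10 germline genes, with the marker giving the motifs present. Bars show the percent of 17491 protein-coding promoters with each CpG number (right axis); all 10 genes lie at 15 CpG or more, whether their level is as high as that of Dazl or as low as that of Tex101.

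High and low genes were found both with and without an E-box. Above 1 TPM were 4 genes with an E-box (Hormad1, Stk31, Sycp3 and Mael) and the 2 highest genes without one (Dazl and Tex19.1). Below 1 TPM were 2 genes with an E-box (Slc25a31 and Sycp1) and 2 without (Asz1 and Tex101). With 10 genes this is a description only.

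Dazl, an RNA-binding protein that controls translation in germ cells, was the highest of the 10. The gene (ENSMUSG00000010592) lies on the minus strand of chromosome 17 from 50279395 to 50293636 in GENCODE vM21 on GRCm38. It had 926, 479 and 394 estimated counts in replicates 1, 2 and 3, and 19.15, 13.04 and 11.79 TPM, a mean of 14.7 ± 3.94 (SD, n = 3). Every replicate was above every replicate of the other 9 genes. Of 21974 protein-coding genes, 90.6% had a lower mean TPM. Dazl alone held 43.2% ± 3.29 (SD, n = 3) of the TPM summed over the 10 genes. Its TPM was 2.44 ± 0.15 (SD, n = 3) times that of Tex19.1, the next gene, within the same libraries.

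Among the genes of transposon defence within the 10, Tex19.1 was highest. Tex19.1 (ENSMUSG00000039329, chromosome 11, 121146143 to 121148319, plus strand) encodes a mammalian germ cell protein tied to the control of retrotransposons. It had 265.89, 147.87 and 118.92 estimated counts and 7.37, 5.67 and 4.85 TPM, a mean of 5.96 ± 1.29 (SD, n = 3). Mael (ENSMUSG00000040629, chromosome 1, 166201201 to 166238747, minus strand), a factor of the piRNA pathway, had 75, 65 and 33 counts and 1.96, 2.45 and 1.23 TPM. Asz1 (ENSMUSG00000010796, chromosome 6, 18050964 to 18109061, minus strand), a protein of germ granules that piRNA production needs, had 17, 10 and 7 counts and 0.39, 0.41 and 0.40 TPM. The 3 genes therefore stood in the order Tex19.1, Mael and Asz1 in every replicate, with no overlap. Stk31 (ENSMUSG00000023403, chromosome 6, 49395604 to 49469501, plus strand), which encodes a germ cell protein with a Tudor domain and a kinase domain, had 169, 117 and 89 counts. Its TPM was 2.82, 3.07 and 2.08, a mean of 2.66 ± 0.51 (SD, n = 3). In each replicate Stk31 was above Asz1 and above Mael, though its range overlapped that of Mael.

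The 3 genes of meiotic chromosomes were far apart. Hormad1 (ENSMUSG00000028109, chromosome 3, 95559677 to 95587671, plus strand), a protein of unsynapsed chromosome axes, had 219.18, 121.75 and 81.56 counts and 6.40, 5.10 and 3.39 TPM. Sycp3 (ENSMUSG00000020059, chromosome 10, 88459569 to 88473236, plus strand), which forms the axial and lateral elements of the synaptonemal complex, had 85, 49 and 37 counts and 3.16, 2.60 and 1.94 TPM. Sycp1 (ENSMUSG00000027855, chromosome 3, 102818499 to 102936100, minus strand), the transverse filament that joins the lateral elements, had 4, 5 and 7 counts and 0.20, 0.17 and 0.12 TPM. Hormad1 and Sycp3 were thus above the floor in every replicate and Sycp1 was just above it. Sycp2, an axial element gene outside the 10, named after its values were seen, was also near the floor, with 2, 2 and 5 counts. The exact Poisson 95% intervals of the Sycp1 counts ran from 1.09 to 10.2, 1.62 to 11.7 and 2.81 to 14.4. The Sycp1 counts and TPM ran in opposite orders over the replicates, and the deposited length of the gene differed between them, as described below.

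The remaining pair of genes acts in sperm and in the energy supply of germ cells. Slc25a31 (ENSMUSG00000069041, chromosome 3, 40708855 to 40726096, plus strand), the ADP/ATP carrier of mitochondria in germ cells, had 29, 19 and 17 counts and 0.54, 0.51 and 0.45 TPM. Tex101 (ENSMUSG00000062773, chromosome 7, 24668007 to 24676675, minus strand), a surface glycoprotein of male germ cells, had 2, 1 and 3 counts and 0.08, 0.06 and 0.17 TPM. Tex101 was thus at the floor, so its place in any order rests on 1 to 3 counts per library. Slc25a4 and Slc25a5, the ADP/ATP carriers of other tissues, had 40.7 ± 1.53 and 130 ± 8.11 TPM (SD, n = 3) in the same libraries.

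**Figure D2:**
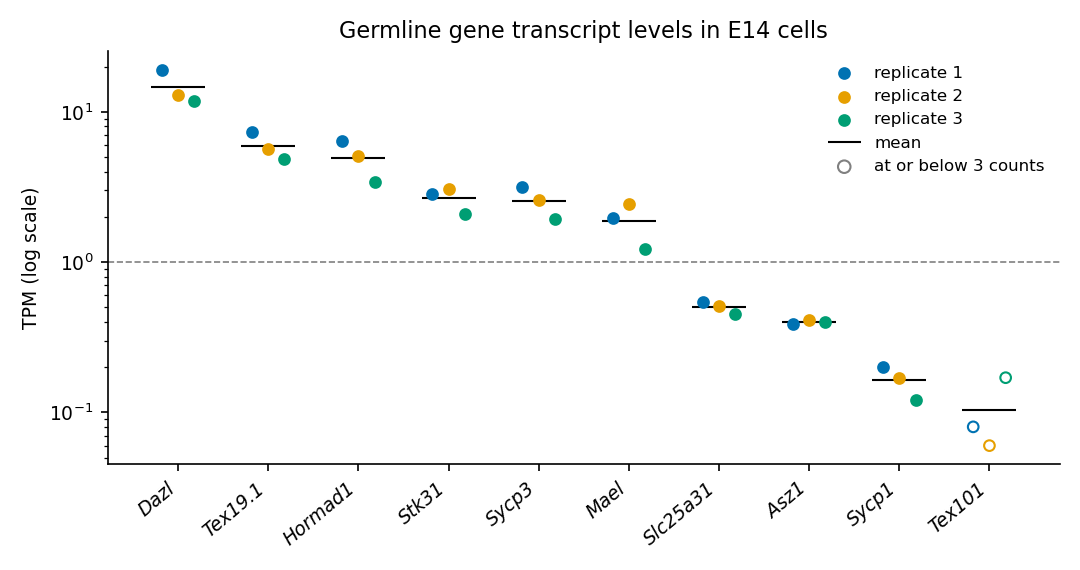
TPM (log scale) of each germline gene in the 3 replicates, with the mean as a bar, ordered by mean; open circles are values at or below 3 counts and the dashed line is 1 TPM. Dazl stands above all others, 6 genes lie above the line in every replicate, and Tex101 is at the floor in all 3.

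The order by mean TPM was Dazl, Tex19.1, Hormad1, Stk31, Sycp3, Mael, Slc25a31, Asz1, Sycp1 and Tex101. Ranges over the 3 replicates did not overlap in 40 of the 45 pairs of genes. Without Tex101, whose values are at the floor, this held for 32 of the 36 pairs among the 9 other genes. Of the 9 pairs of neighbours in the full order, 5 were separated in this way. Tex19.1 overlapped Hormad1, Stk31 overlapped Sycp3, Sycp3 overlapped Mael, and Sycp1 overlapped Tex101. Within the same library, Tex19.1 was above Hormad1 and Sycp3 above Mael in all 3 replicates. Stk31 was above Sycp3, and Sycp1 above Tex101, in 2 of the 3. The widest gap between neighbours was 3.76-fold, between Mael and Slc25a31. That gap also holds the limit of 1 TPM. Slc25a31 and Asz1 did not overlap in range, but their means of 0.50 and 0.40 TPM rest on 65 and 34 counts in all.

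Differences between the replicates depended on the scale. In TPM, 8 of the 9 genes over the floor were lowest in replicate 3, against 75.9% of protein-coding genes over the floor, and 6 of the 9 were highest in replicate 1, against 82.1%. The median protein-coding gene deviated from its own mean by 0.33, 0.00 and -0.31 in log2 TPM in replicates 1, 2 and 3. Tex19.1 deviated by 0.33, -0.05 and -0.28 and Dazl by 0.42, -0.14 and -0.28, close to that shift. CPM (library-scaled counts, with no length correction) adjusted by TMM, which aligns the bulk of genes between libraries, left little of it. On that scale Tex19.1 was at 22.3, 22.3 and 22.4, Dazl at 77.6, 72.2 and 74.2, and Sycp3 at 7.12, 7.38 and 6.97. Among the 6 genes over 1 TPM, Mael varied most on that scale, at 6.28, 9.79 and 6.22, with replicate 2 above the other two.

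**Figure D3:**
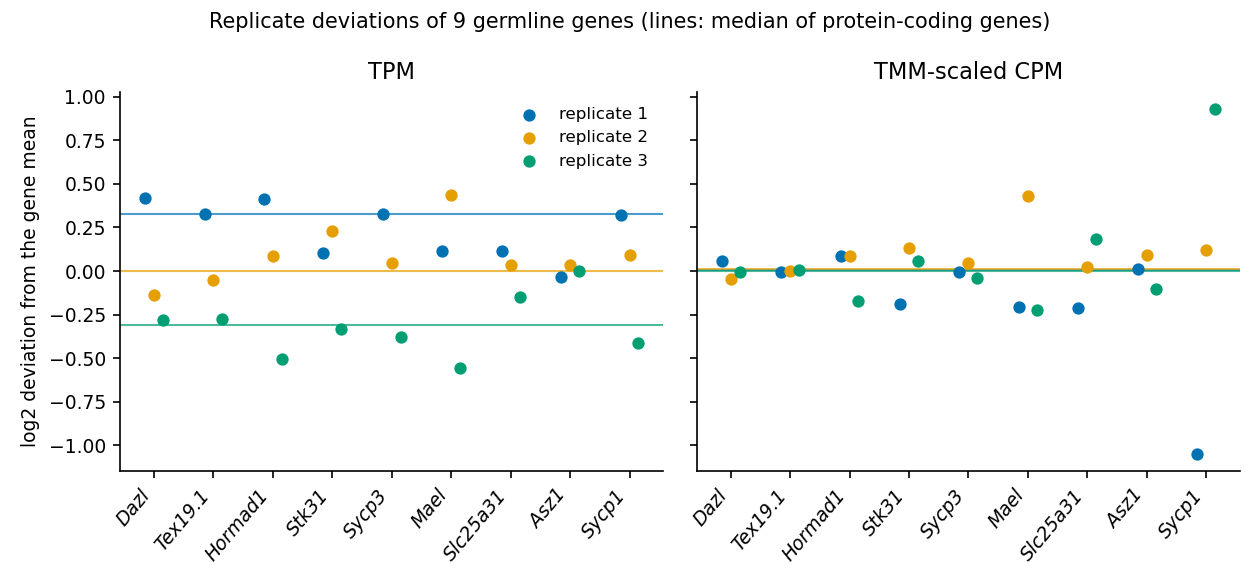
Log2 distance of every library from the mean of that gene, for the 9 germline genes over the floor, in TPM (left) and in TMM-scaled CPM (right); horizontal lines are the medians of 12318 protein-coding genes. In TPM most genes follow the lines, with replicate 3 low, while on the TMM scale Dazl, Tex19.1 and Sycp3 lie near 0 in all replicates and Mael and Sycp1 spread most.

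Variation between replicates was tested over all genes with edgeR's goodness-of-fit test, which asks whether a gene varies more than genes of like abundance. Of the 10 genes, 7 passed the filter on low counts, and Sycp1, Asz1 and Tex101 did not. None of the 7 was called, with Benjamini-Hochberg adjusted p of 1.00 for each, and 0 had an unadjusted p under 0.05. The smallest unadjusted p was 0.246, that of Mael. Among the 12577 genes tested, 1.84% were called. DESeq2 marked 0 of the 10 as dispersion outliers, against 0.508% of genes with counts. No label says whether the replicates came from separate cultures, so this p measures only the spread between these samples.

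The deposited length of a gene is the mean over its transcripts weighted by their estimated abundance, so it shows which isoforms the reads were assigned to. For Mael it was 1546 nt in every replicate, the length of its coding transcript of 12 exons. Sycp3 was at 1139 nt, the length of its coding transcript of 9 exons, in replicates 2 and 3 and at 1129.63 nt in replicate 1. Tex101, with its 6 counts in all, was at 1059 nt, the length of the transcript that starts where the RefSeq promoter does. The other Tex101 transcripts start 4625 bases upstream.

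Dazl gave mixed lengths of 1920.25, 2081.21 and 1893.94 nt. Its longest coding transcripts have 11 exons each and 2976 and 2820 nt, so part of the estimate went to its shorter transcripts of 457 to 1342 nt, which include 3 with retained introns. Stk31 lay between 2153.70 and 2385.95 nt, beside transcripts of 1251, 2922, 2988 and 3237 nt. Tex19.1 lay between 1424.65 and 1520.31 nt, beside 1745 and 406 nt. Hormad1 lay within 1399.99 to 1403.63 nt, where its 4 coding transcripts span 1385 to 1511 nt. For these 4 genes the replicates were alike in deposited length.

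For the genes of few counts the length was unstable. Sycp1 was at 877.87 nt in replicate 1, 1693.17 nt in replicate 2 and 3189 nt in replicate 3, and Asz1 was at 1736, 1435.63 and 1057.75 nt. Since TPM divides by this length, the 3 near-equal TPM values of Asz1 (SD of 0.01) combine counts of 17, 10 and 7 from libraries of different depth with 3 different lengths. The SD of the Asz1 TPM therefore says little about its counting error. Its count had an exact Poisson 95% interval of 2.81 to 14.4 in replicate 3.

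**Figure D4:**
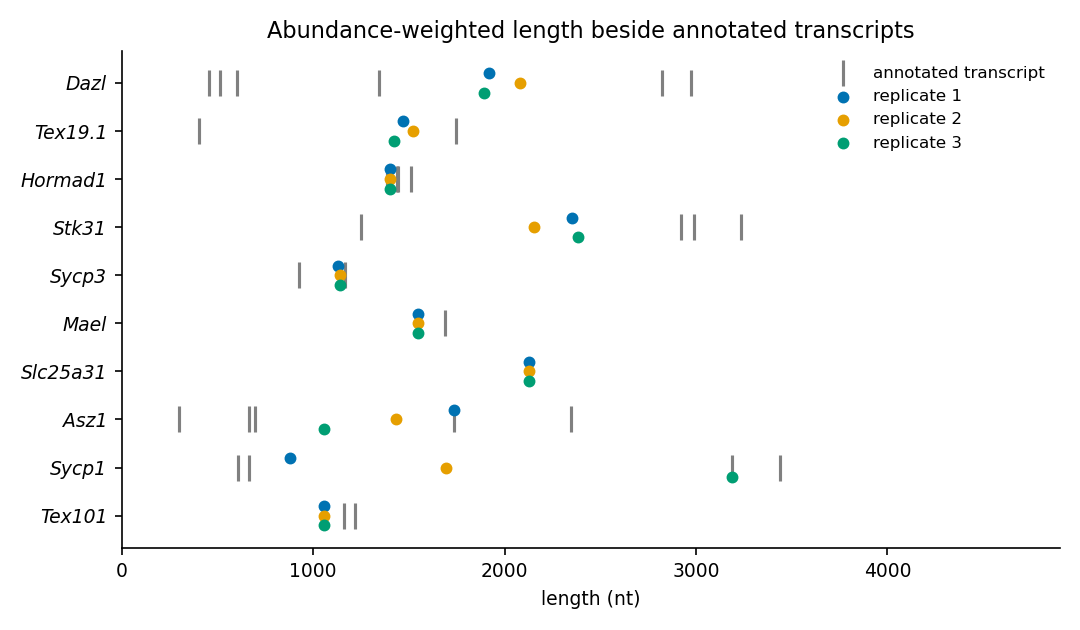
Abundance-weighted length (nt) of each germline gene in the 3 replicates (points) beside the lengths of its annotated transcripts (grey ticks). Mael and Tex101, the latter with 1 to 3 counts per library, sit on 1 transcript in all replicates. Slc25a31 has only 1 annotated transcript, so its length could not differ. Dazl and Stk31 lie between short and long transcripts, and Sycp1 and Asz1 differ between replicates.

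Reads that also match another gene could blur these values, so each transcript was cut into all stretches of 50 nt and searched, on both strands, in the transcripts of every other gene. Dazl, Mael, Asz1, Tex101, Slc25a31 and Stk31 shared none. Sycp1 shared 5.47%, with genes at 0 counts among its top partners. Tex19.1 shared 2.67% of its stretches with Tex19.2, its paralogue on the same chromosome, which had 2.11, 3.13 and 2.08 counts. Hormad1 shared 21.4% with the processed pseudogene Gm15529, which had 5.82, 2.25 and 4.44 counts. Tex19.1 and Hormad1 were also the 2 genes of the 10 whose estimated counts were not whole numbers, with a tolerance of 0.005. Both partners were low beside the germline gene, but their counts are estimates from the same assignment of shared reads. How many reads of Tex19.1 and Hormad1 were assigned wrongly was therefore not tested.

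Sycp3 is a different case, since it lies wholly inside Chpt1 on the opposite strand. Of its stretches, 43.0% matched a Chpt1 transcript read on the other strand. Chpt1, an enzyme of phosphatidylcholine synthesis, had 218, 145 and 107 counts, with 5.77, 5.47 and 3.95 TPM, above Sycp3 in every replicate. The libraries are directional, but whether the counting used strand is not given in the sources used here, so the level of Sycp3 is uncertain. Its counts were whole numbers in all 3 replicates. The other overlaps were with pseudogenes listed at 0 counts, 3 within Sycp1 and 1 within Stk31.

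The genes were next set beside other genes of the same pathways, in lists written by hand from general knowledge. Beside each count of genes at 1 TPM stands the share of all protein-coding genes, 44.1%. Of 18 other genes of the piRNA pathway and germ granules, 8 reached 1 TPM, or 44.4%. Rnf17, a Tudor protein of germ granules, was highest at 16.8 ± 2.77 TPM (SD, n = 3), and Tdrd6 lowest at 0.01 TPM. Of 28 other genes of meiotic chromosomes and recombination, 12 reached 1 TPM, or 42.9%. Syce2, of the central element of the synaptonemal complex, was highest at 25.9 ± 4.03 TPM (SD, n = 3), and Spo11 and Rad21l, which break meiotic DNA and hold sister chromatids, had 0 counts in every replicate. Hormad2, the paralogue of Hormad1, had 4.93 ± 1.09 TPM (SD, n = 3), within the range of Hormad1. Of 18 germ cell regulators, 6 reached 1 TPM, or 33.3%, led by Sohlh2 at 12.0 ± 2.19 TPM (SD, n = 3), and the lowest, Sohlh1, had 0 counts. The piRNA and meiotic shares were thus near that of protein-coding genes. The regulators' share was lower, but Prdm1 at 0.97 and Dnd1 at 0.94 TPM lay just under the limit. Without replicate 3, 9 of the 18 regulators reached it, with no share of protein-coding genes given here for that setting. Boll, a relative of Dazl, had 1.46, 0.77 and 0.31 TPM. The Sycp3 relatives Xlr3a, Xlr3b and Xlr3c had means of 16.4, 5.15 and 8.14 TPM, which are uncertain because their sequences are nearly alike.

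Most genes of haploid germ cells were at the floor. Of 14 genes of spermatids and sperm, 12 did not exceed 3 counts in any of the libraries and 8 had 0 counts, Prm1, a protamine of sperm chromatin, among them. Among protein-coding genes, 36.7% did not exceed 3 counts and 26.2% had 0, and among all genes 67.4% did not exceed 3. Ldhc, the lactate dehydrogenase of sperm, was over the floor with 14, 9 and 12 counts. Crem, also used outside germ cells, was the 1 gene over 1 TPM, at 2.42 ± 0.66 (SD, n = 3). The median of log2(TPM + 1) was 0.54 for the piRNA list, 0.71 for the meiotic list, 0.80 for the regulators and 0.00 for the spermatid list, beside 1.64 for the 10 genes and 0.53 for protein-coding genes. Without the shortest genes in the denominator, 16 meiotic genes and 11 regulators reached 1 TPM, so these counts depend on the scale. The 44.1% of protein-coding genes does not apply to that scale.

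**Figure D5:**
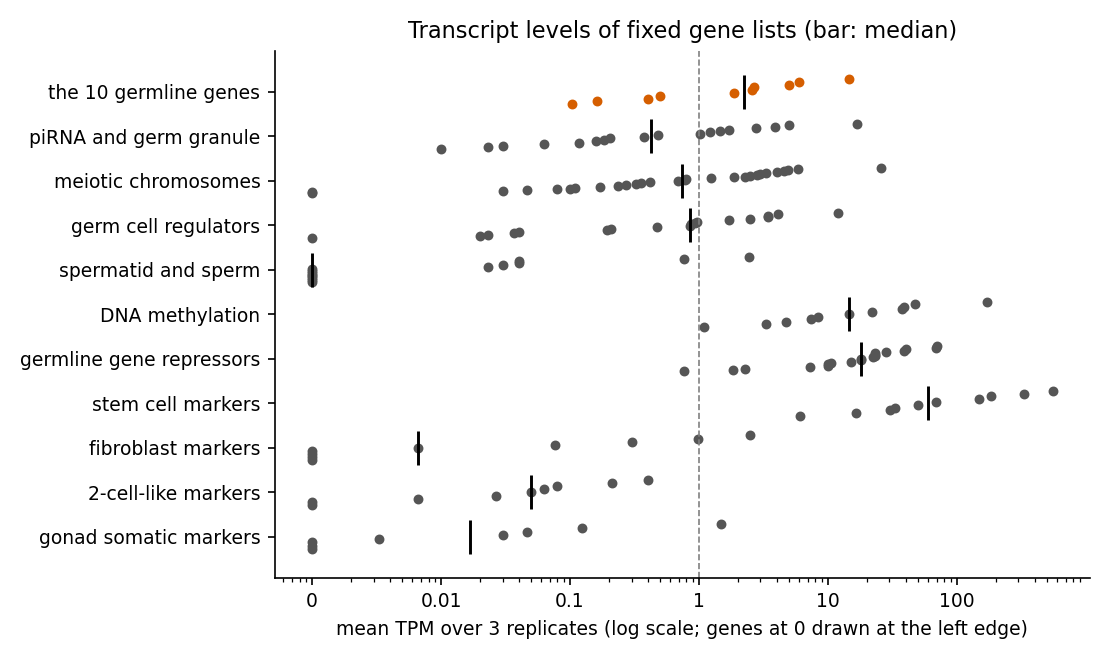
Mean TPM over 3 replicates (log scale) of each gene in the fixed lists, with a bar at the list median, the dashed line at 1 TPM and genes at 0 drawn at the left edge. The 10 germline genes span from the floor to above 10 TPM, as do the piRNA and meiotic lists, while spermatid genes sit at or near 0 and the methylation and repressor lists lie mostly above 1 TPM.

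Genes that add, keep or remove DNA methylation were transcribed as well, and so were most known repressors of these genes. All 11 genes of DNA methylation, its maintenance and its removal reached 1 TPM, against 44.1% of protein-coding genes and 19.8% of all genes. Uhrf1 and Dnmt1, which copy methylation at replication, had 37.3 ± 8.87 and 14.5 ± 4.36 TPM (SD, n = 3). The methyltransferases of new sites, Dnmt3a and Dnmt3b, had 4.73 ± 0.75 and 3.30 ± 0.51 TPM, and their cofactor Dnmt3l 7.42 ± 2.12 TPM (SD, n = 3). Tet1 and Tet2, which oxidise methylated cytosine, had 47.2 ± 17.3 and 39.0 ± 9.63 TPM (SD, n = 3). Tet3 was the lowest of the list at 1.09 ± 0.47 TPM, and Trim28, a corepressor that protects methylated sites with Zfp57, the highest at 173 ± 69.9 TPM (SD, n = 3). Zfp57 had 21.8 TPM and Tdg, a glycosylase that removes oxidised cytosine, 8.35 TPM as means. In every replicate Tet1 and Tet2 were above Dnmt3a, Dnmt3b and Dnmt3l.

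Of 19 genes of PRC1.6 and other repressors, 18 reached 1 TPM, against the same 44.1% and 19.8%. Mga had 39.0 ± 11.9, Max 17.9 ± 6.80, Pcgf6 10.6 ± 2.02, L3mbtl2 7.32 ± 1.82 and E2f6 2.29 ± 0.72 TPM (SD, n = 3). E2f6 was thus the lowest of these 5 subunits, near the level of Stk31 and Sycp3. Ring1 was the 1 gene of the list below 1 TPM, at 0.76 ± 0.044 (SD, n = 3), while its paralogue Rnf2 had 17.98 ± 2.61 TPM (SD, n = 3). The H3K9 methyltransferases Setdb1, Ehmt2 and Ehmt1 had 10.1 ± 2.42, 15.2 ± 4.03 and 10.03 ± 1.71 TPM (SD, n = 3). Cbx3, which binds methylated H3K9, was highest at 69.7 ± 16.1 TPM (SD, n = 3). The others, Zfp42, Tfdp1, Wdr5, Hdac1, Hdac2, Rybp, Cbx1 and Yaf2, had mean TPM from 1.84 for Yaf2 to 68.8 for Zfp42.

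The labelled cell type was checked by its markers. All 10 stem cell markers were above 1 TPM, from Utf1 at 6.05 ± 1.02 to Dppa5a at 554 ± 77.9 TPM (SD, n = 3). The summed TPM of the 9 fibroblast markers was 4.92, 4.61 and 2.07, of which Thy1, the highest, held most. Pdgfrb, with 203, 96 and 55 counts, and Twist1, with 14, 8 and 8, were also over the floor in every replicate. Col1a1 had 20, 8 and 3 counts, and Col3a1, Postn, Lum and Dcn had 0. The 9 matched markers of 2-cell-like cells, a rare state of stem cell cultures, summed to 1.11, 0.83 and 0.58 TPM. None reached 1 TPM; Zscan4f was highest at 0.40 ± 0.22 (SD, n = 3), and Tcstv1 was lowest with 0 counts. The 8 markers of gonadal somatic cells summed to 3.30, 1.66 and 0.11 TPM, mostly from Insl3 in replicates 1 and 2. Star was over the floor in every replicate, with 18, 9 and 6 counts, and Cyp17a1, Hsd3b1 and Inhba had 0 counts. Summed TPM of the 10 germline genes was 42.1, 33.1 and 26.4 in the same order, and the part of these other cells in it was not tested.

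Depth sets the limit for the low genes. The libraries held 11420425, 6467405 and 5787357 estimated counts, and the 10 genes together held 0.0157%, 0.0157% and 0.0136% of them. A floor of 3 counts is 0.263, 0.464 and 0.518 CPM. The TPM ranges of Sycp1 and Tex101 overlapped over the 3 replicates, so their order was not resolved. A difference between the pair was not tested. Genes of effective length under 100 nt took 60.3%, 65.8% and 63.9% of all TPM, which lowers the TPM of every longer gene. With those genes left out of the denominator, Slc25a31 and Asz1 came to 1.36 and 1.10 TPM, and 8 of the 10 genes passed 1 TPM. That step raises the TPM of every longer gene, and the share of protein-coding genes on that scale is not given here.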

How the data were processed

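RNA-seq of E14 cells was read from 3 tables, 1 per replicate, grouped by title. Per the file headers these are gene-level RSEM output, with an estimated count (expected count) and TPM as deposited by the authors; the authors' FPKM column was not used. Per the submitters' processing notes, STAR, RSEM and mm10 were among the tools and builds, with no version. The annotation release and strand setting are not given in the sources used here. Names and coordinates came from GENCODE vM21 on GRCm38 (55227 of 55487 IDs matched), and promoters from RefSeq on GRCm38.p6. Of the symbols in the 11 lists, Dux was unmatched and Iho1 was found by a synonym.

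Levels were compared between genes in TPM and between replicates in TMM-scaled CPM. edgeR 4.0.16 (R 4.3.3) was run on the estimated counts after rounding to whole numbers: an intercept fit with trended dispersion, filterByExpr and the goodness-of-fit test, called at a Benjamini-Hochberg adjusted p under 0.05 over 12577 genes. DESeq2 1.42.0 gave alternatives. Python 3.11.15, pandas 2.3.3, numpy 2.4.6, scipy 1.17.1 and matplotlib 3.10.9 were used otherwise. Exact Poisson intervals (95%) and the floor of 3 counts take in counting error alone, because reads copied by PCR are not separate molecules. A pair of genes was separated where their TPM ranges over the 3 replicates did not overlap. Named genes were the 10 genes, the highest and lowest of each list, all genes of the methylation, repressor and paralogue lists, and annotated neighbours; other genes were named after their values were seen. The 10 genes and the lists were chosen with earlier results of these data known. The R-loop samples were not used here.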

Additional observations from a re-analysis of the deposited data

How the results depend on the processing

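Of 122 other settings, 81 (those for the pathway lists, for levels of single genes and 1 for the order) were chosen after seeing the data. Of the 122, 91 left the result within the allowed spread, 31 moved it and 0 reversed it. With a limit of 5 TPM, 2 genes counted as expressed in place of 6, and with CPM of at least 1 or without genes of effective length under 100 nt, 8 did. The median level of 1.64 was 1.14 when the pseudocount was 0.1, 3.03 in CPM, 2.81 with TMM-scaled counts per kilobase and 2.76 without genes of effective length under 100 nt; these change the scale itself. It ran from 1.55 to 1.78 when each replicate was left out. The share of Dazl was 49.6% in CPM and from 42.02% to 45.1% with each replicate left out. Separated pairs of the 10 genes ran from 40 to 43, the last without replicate 3. Leaving out a replicate can only narrow a range, so in those settings the number could not fall. No alternative called a gene of the 10 as varying, with adjusted p from 0.923 to 1.00. The E-box count of 6 was the same before the start only. With a limit of 1 CPM, 19 meiotic genes in place of 12 passed, 10 regulators in place of 6 and 2 spermatid genes in place of 1. Without genes of effective length under 100 nt, 11 regulators and 2 spermatid genes passed. For these other limits and scales no share of protein-coding genes is given here, neither for the 10 genes nor for the lists. The other moves were levels of the 10 single genes without those short genes or as TMM-scaled counts per kilobase. Depth limits the low end: Sycp1 and Tex101 rest on 16 and 6 counts in all. No paired analysis was possible because only 1 group was of RNA, and the same replicate numbers elsewhere belong to samples of another assay.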
